A study of Mus musculus with 12 samples.

Results

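Integrins are the cell's receptors for matrix and for ligands on other cells, and 10 genes of integrin chains were read in the dendritic cell (DC) line Sp37A3. The members were listed by name: Itgal, Itgam and Itgb2 of the leukocyte integrins, and Itga4, Itgb1, Itga5, Itga6, Itgav, Itgb3 and Itgb5, whose integrins bind matrix proteins or vascular ligands. They are 10 of the 55401 genes in the table of read counts, and 9 of them passed the filter on low values together with 14079 genes in all. Itgb3 did not pass it. Itgae, Itgax, Itgb7 and Itgb8 are outside the set and appear here only as related chains, of which Itgax, Itgb7 and Itgb8 can pair with a member.

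Sp37A3 is an immature DC line grown from the spleen of C57BL/6 mice and kept in GM-CSF and M-CSF. The control line, CtrV, was transduced with an empty lentiviral CRISPR vector and is labelled as expressing Siglec-E, an inhibitory receptor for sialic acids. The EKO line was transduced with the same vector carrying a guide against Siglece and is a pool of several edited clones. RNA of 12 cultures was sequenced, with 3 in each of 4 groups: CtrV and EKO cells, each unpulsed or pulsed with ovalbumin (OVA). All 4 groups had been stimulated with lipopolysaccharide (LPS) and processed for 24 h, so no group shows the cells without LPS. OVA-pulsed cells had received 0.1 mg/ml OVA for 2 h and 0.1 µg/ml LPS for 24 h. Whether replicates of a group came from separate thaws or days was not stated, so p-values measure the spread between these cultures. Each label stands for a single line, so p-values do not measure the spread between lines or clones. The edit and other differences between the lines cannot be told apart.

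An integrin is a pair of 1 alpha and 1 beta chain, and the pairing sets what the receptor binds. The beta chain of Itgb2 pairs with the alpha chains of Itgal (LFA-1, a receptor for ICAM-1) and Itgam (Mac-1, which binds ICAM-1, fibrinogen and the complement fragment iC3b), and leukocytes use these pairs in adhesion, in phagocytosis and in the contact between DCs and T cells. The beta chain of Itgb1 pairs with those of Itga4 (VLA-4, for VCAM-1 and fibronectin), Itga5 (the classical fibronectin receptor), Itga6 (a laminin receptor) and Itgav. The alpha chain of Itgav also pairs with the beta chains of Itgb3 and Itgb5 in receptors for vitronectin and other proteins with an RGD motif. Activated DCs are known to migrate within tissues largely without integrins but to need them where they cross or hold to vessel walls and T cells. Because a surface receptor needs both chains, mRNA of 1 chain gives no measure of the receptor, and surface protein was not analysed here.

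Totals of the 12 libraries lay between 27116201 and 39698572 counts, and 3 counts, taken as the lowest visible level, corresponded to 0.0785 to 0.110 CPM, the count scaled by library size, with counting error only. Siglece mRNA was not lower in the libraries labelled EKO, with 166 to 235 CPM against 150.2 to 163 CPM in CtrV libraries, and it was called higher there in both treatments (log2 fold change 0.31, adjusted p = 0.011 with OVA, and 0.41, adjusted p = 0.0026 without, from edgeR). Clones of this line had been screened for Siglec-E expression, and the paper reports that those pooled showed little or no Siglec-E. It also shows the Siglec-E expression of both lines. Counts per gene do not show whether an edited transcript encodes the protein. The line is called EKO-labelled, and directions are those of the labels. Replicate 1 of the EKO-labelled cells stood apart in both treatments, at 19.1 and 20.9 on a second principal component that held 7.05% of the variance, and values without these libraries are given where they matter. All 9 DC markers passed the filter, with Cd74 between 13959 and 18270 CPM but Flt3 at only 0.997 to 7.85 CPM. The 6 macrophage markers were also above 1 CPM in every library, and their sum ranged from 1331 to 1517 CPM in the CtrV libraries and from 1725 to 1886 CPM in the EKO-labelled ones. The 4 endothelial markers summed to 167 to 203 CPM in CtrV and 285 to 349 CPM in EKO-labelled libraries, nearly all of it Pecam1, with Tek at 0 counts. Pf4, a platelet marker, was at 1.59 to 2.39 CPM in the former and 3.22 to 5.32 CPM in the latter, with Gp9 at 0 counts. Itga2b of the same platelet list went the other way, at log2 fold changes of -0.75 with OVA and -0.51 without. Gp1bb of that list stayed under 1 CPM in every library. The part of these differences in the integrin results was not tested. Markers that define other leukocytes with high integrin levels were nearly absent: Ly6g, S100a8, S100a9, Elane, Cd3e, Cd3g, Trac, Ncr1 and Prf1 had 0 counts in all 12 libraries, and the summed T cell, B cell and natural killer cell lists reached at most 0.553, 1.07 and 0.486 CPM. The T cell sum was 0.0302 to 0.166 CPM in CtrV and 0.220 to 0.553 CPM in EKO-labelled libraries. It was nearly all Cd4, with means of 0.0813 CPM in OVA-pulsed CtrV and 0.412 CPM in OVA-pulsed EKO-labelled cells. For B cells these ranges were 0.0358 to 0.282 and 0.547 to 1.07 CPM, and the natural killer cell sums overlapped.

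With OVA, 5 of the 9 tested integrin genes were higher and 2 lower in the EKO-labelled line by the quasi-likelihood test of edgeR, where a gene was called if its p adjusted over all tested genes was under 0.05. Itgal and Itga5 rose about equally, by log2 fold changes of 2.59 and 2.67, followed by Itga4 at 1.79, Itgb1 at 0.54 and Itgav at 0.36. Itga6 fell by 1.28 on the log2 scale and Itgb2 by 0.27. Itgam and Itgb5 did not pass the test. Among all tested genes 47.0% were called, 25.1% higher and 21.9% lower, so a call by itself was common between these lines. The median absolute log2 fold change was 0.54 over the 9 integrin genes and 0.21 over all tested genes.

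Without OVA the same chains moved, but this comparison is not an independent repeat. Deviations from the group mean in same-numbered OVA-pulsed and unpulsed libraries were correlated at 0.706, 0.351 and 0.411 in EKO-labelled cells. In CtrV cells these correlations were 0.0775, 0.179 and 0.373. Of the 9 genes, 6 were higher and 2 lower, against 46.4% of all tested genes called, 24.5% higher and 21.9% lower. The additional call was Itgam. The median absolute log2 fold change was 0.42 over the integrin genes and 0.21 over all tested genes. In 6 of the 9 genes the CPM of the lines did not overlap in either treatment, namely Itgal, Itgb2, Itga4, Itgb1, Itga5 and Itga6. Such a gap was seen in 52.9% of all tested genes with OVA and in 47.1% without OVA.

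**Figure D1:**
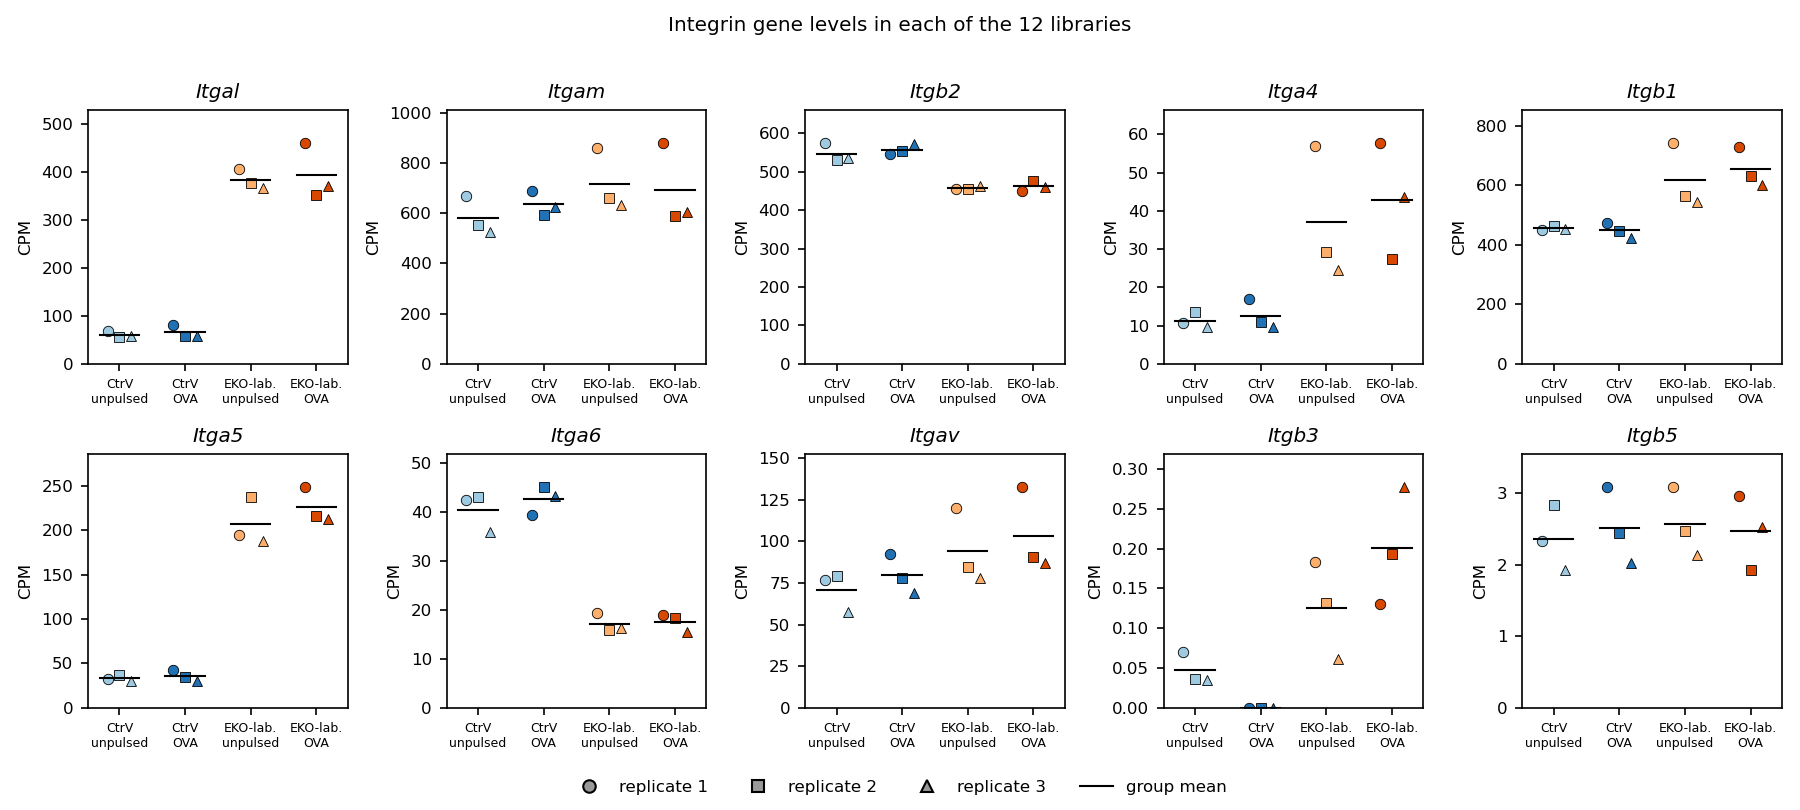
CPM of the 10 integrin genes in each library, with the 4 groups on the x axis, 1 point per library shaped by replicate, and a bar at the group mean. Each axis starts at 0. The EKO-labelled libraries lie above every CtrV library for Itgal, Itga4, Itgb1 and Itga5 and below them for Itgb2 and Itga6, whereas Itgam, Itgav and Itgb5 overlap and Itgb3 stays under 0.3 CPM.

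Among the leukocyte integrins, Itgal (ENSMUSG00000030830, chromosome 7 from 127296260 to 127335138 on GRCm38, plus strand) encodes the alpha chain of LFA-1. Unpulsed CtrV cells contained 68.5, 54.9 and 57.4 CPM, here and below in the order of replicates 1, 2 and 3, and those pulsed with OVA contained 81.1, 58.2 and 58.7 CPM. In EKO-labelled cells it had 407, 377 and 366 CPM when unpulsed, and 460.4, 353 and 371 CPM after OVA. The lowest EKO-labelled library thus stood far above the highest CtrV library, which was replicate 1 with OVA. The log2 fold change was 2.59 (SE 0.07, adjusted p = 4.1e-09 from edgeR) with OVA and 2.68 (SE 0.07, adjusted p = 3.7e-09 from edgeR) without. In each of the 6 replicate pairs the difference was at least 2.50. Of the 9 tested members, Itgal had the smallest adjusted p in both treatments.

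Itgam (ENSMUSG00000030786, chromosome 7 from 128062640 to 128118491, plus strand) encodes the alpha chain of Mac-1, also known as CD11b. Its levels were 669, 552 and 524 CPM in unpulsed and 689, 592 and 625 CPM in OVA-pulsed CtrV cells. EKO-labelled cells had 858, 660.02 and 631 CPM when unpulsed, and 878, 588 and 604 CPM after OVA. Replicate 1 was the highest library of each group, and the lines overlapped in both treatments. Without OVA the log2 fold change of 0.29 passed the test (SE 0.07, adjusted p = 0.0080 from edgeR), and with OVA the value was 0.10 (SE 0.07, adjusted p = 0.31 from edgeR). The difference between the treatments, tested itself, was not called, at -0.20 (SE 0.11, adjusted p = 1 from edgeR). The call without OVA was lost when the replicate number was left out of the model (0.30, adjusted p = 0.17 from edgeR). Without replicate 1 of the EKO-labelled cells the values were 0.24 without OVA and -0.01 with OVA.

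Reads of Itgam cannot be assigned to it alone, as 68.7% of its exon bases lie in exons of Gm49368, a gene annotated on the same strand. The count of Gm49368 was 0.815 to 0.843 of that of Itgam in every library, so both rows hold largely the same reads. The level of Itgam is therefore uncertain to that extent, whereas Itgal, Itgb2, Itgb1, Itga5, Itga6, Itgb3 and Itgb5 share no exon base with another annotated gene. Itga4 overlaps Cerkl on the opposite strand in 8.04% and Itgav overlaps Gm13684 in 5.90% of its exon bases, and the sources used here do not say whether strand was used in the counting.

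Itgb2 (ENSMUSG00000000290, chromosome 10 from 77530252 to 77565708, plus strand) encodes CD18, the beta chain shared by LFA-1 and Mac-1. CtrV cells had 574, 532 and 536 CPM when unpulsed, and 546, 554 and 571 CPM after OVA. The EKO-labelled cells had 455, 456 and 462 CPM when unpulsed, and 449.9, 475 and 459.5 CPM after OVA. All 6 EKO-labelled libraries were below all 6 CtrV libraries, in a gene with little spread between replicates. Its log2 fold change was -0.27 (SE 0.05, adjusted p = 0.0012 from edgeR) with OVA and -0.26 (SE 0.05, adjusted p = 0.0018 from edgeR) without. The common beta chain therefore moved in the opposite direction to Itgal, by a much smaller amount.

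Among the partners of Itgb1, Itga5 (ENSMUSG00000000555, chromosome 15 from 103344286 to 103366763, minus strand) encodes the alpha chain of the fibronectin receptor. It had 32.1, 37.0 and 30.6 CPM in unpulsed and 43.0, 34.2 and 29.7 CPM in OVA-pulsed CtrV cells. In EKO-labelled cells the values were 194, 237 and 188 CPM when unpulsed, and 248, 216.5 and 212 CPM after OVA. No CtrV library came near the EKO-labelled range, and replicate 1 was not high in unpulsed cells. For Itga5 the log2 fold change was 2.67 (SE 0.11, adjusted p = 5.0e-08 from edgeR) with OVA and 2.64 (SE 0.11, adjusted p = 5.8e-08 from edgeR) without.

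Itga4 (ENSMUSG00000027009, chromosome 2 from 79255426 to 79333123, plus strand) encodes the alpha chain of VLA-4. Its CPM was 10.6, 13.6 and 9.59 in unpulsed and 17.0, 10.8 and 9.48 in OVA-pulsed CtrV cells. EKO-labelled cells had 57.1, 29.2 and 24.7 CPM when unpulsed, and 57.7, 27.3 and 43.5 CPM after OVA. The lines did not overlap, but the EKO-labelled replicates spread more than in any other called member, with replicate 1 highest in both treatments. The log2 fold change was 1.79 (SE 0.24, adjusted p = 0.00015 from edgeR) with OVA and 1.62 (SE 0.25, adjusted p = 0.00039 from edgeR) without. When replicate 1 of the EKO-labelled cells was left out, 1.65 and 1.37 remained, both called.

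Itgb1 (ENSMUSG00000025809, chromosome 8 from 128685654 to 128733200, plus strand) encodes CD29, the beta chain of the largest integrin subfamily. It had 449, 464 and 453 CPM in unpulsed and 475, 447 and 424 CPM in OVA-pulsed CtrV cells. In EKO-labelled cells it had 741, 564 and 543 CPM when unpulsed, and 729, 631 and 602 CPM after OVA. The lines were separate in both treatments, and replicate 1 was again the highest of the EKO-labelled cultures. For Itgb1 the log2 fold change was 0.54 (SE 0.08, adjusted p = 0.00029 from edgeR) with OVA and 0.42 (SE 0.08, adjusted p = 0.0015 from edgeR) without. The values were 0.48 and 0.30 without replicate 1 of the EKO-labelled cells, both called.

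Itga5, Itga4 and Itgb1 were higher in EKO-labelled cells with no overlap, and their promoter sequences are shown for that reason, as the 250 bases before the RefSeq start of each gene on GRCm38.p6, 5′ to 3′ on the strand of the gene. Capitals mark each match of GAGGAA, the core of sites for PU.1, a transcription factor of myeloid cells, and of GGGCGG, the GC box, on either strand. The windows are chr15:103366792-103367041 on the minus strand for Itga5, chr2:79255176-79255425 on the plus strand for Itga4 and chr8:128685404-128685653 on the plus strand for Itgb1.
Itga5: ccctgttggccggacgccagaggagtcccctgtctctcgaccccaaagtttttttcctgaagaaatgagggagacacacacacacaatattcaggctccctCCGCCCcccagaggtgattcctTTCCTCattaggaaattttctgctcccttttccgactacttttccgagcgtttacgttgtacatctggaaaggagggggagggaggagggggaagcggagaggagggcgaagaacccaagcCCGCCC
Itga4: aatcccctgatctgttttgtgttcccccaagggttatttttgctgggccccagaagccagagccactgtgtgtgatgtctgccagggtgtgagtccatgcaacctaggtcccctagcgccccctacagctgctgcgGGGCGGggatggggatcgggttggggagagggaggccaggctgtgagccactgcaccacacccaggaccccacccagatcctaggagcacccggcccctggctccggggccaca
Itgb1: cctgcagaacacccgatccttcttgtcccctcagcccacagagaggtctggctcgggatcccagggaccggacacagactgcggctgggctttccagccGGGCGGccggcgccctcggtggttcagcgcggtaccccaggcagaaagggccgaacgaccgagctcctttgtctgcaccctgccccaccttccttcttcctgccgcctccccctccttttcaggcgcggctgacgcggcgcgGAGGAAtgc
The window of Itga5 held 1 PU.1 core and 2 GC boxes, that of Itga4 held 0 and 1, and that of Itgb1 held 1 and 1. Their GC content was 55.6%, 64% and 68%. Of 32851 RefSeq promoter windows of the same 250 bases, 23.3% held a PU.1 core and 32.7% a GC box. Sequences were at hand for 6 of the 10 members. Among the other three, Itgam had 2 PU.1 cores and 1 GC box, Itgav 2 and 0, and Itgb5 0 and 3. Neither TGANTCA, the AP-1 motif, nor TATAAA, the TATA box, was in any of the 6 windows, whereas 6.75% and 12.4% of all windows held them. No base belonged to matches of both marked motifs, and the letters alone are no evidence of binding.

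Itga6 (ENSMUSG00000027111, chromosome 2 from 71745616 to 71858416, plus strand) encodes the alpha chain of a laminin receptor and was the member that fell most. It had 42.4, 43.0 and 35.9 CPM in unpulsed and 39.3, 45.0 and 43.3 CPM in OVA-pulsed CtrV cells. EKO-labelled cells had 19.4, 15.9 and 16.2 CPM when unpulsed, and 18.9, 18.3 and 15.4 CPM after OVA. The highest EKO-labelled library was well under the lowest CtrV library. The log2 fold change was -1.28 (SE 0.09, adjusted p = 1.5e-06 from edgeR) with OVA and -1.24 (SE 0.09, adjusted p = 2.4e-06 from edgeR) without. Thus, alpha chains that pair with Itgb1 moved in opposite directions. In bulk cultures, fewer cells with a transcript and less of it per cell cannot be told apart, for this and every other gene.

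Of the vitronectin receptor chains Itgav, Itgb3 and Itgb5, Itgav (ENSMUSG00000027087, chromosome 2 from 83724397 to 83806916, plus strand) had the highest level. It had 76.7, 79.2 and 57.3 CPM in unpulsed and 92.3, 78.1 and 68.7 CPM in OVA-pulsed CtrV cells. In EKO-labelled cells it had 119.98, 84.6 and 77.8 CPM when unpulsed, and 132, 90.6 and 87.1 CPM after OVA. Replicate 1 was highest in 3 of the 4 groups, and the lines overlapped in both treatments. For Itgav the log2 fold change was 0.36 (SE 0.10, adjusted p = 0.010 from edgeR) with OVA and 0.39 (SE 0.10, adjusted p = 0.0075 from edgeR) without. Both calls were lost when the replicate number was left out of the model (adjusted p = 0.17 and 0.14 from edgeR), and that with OVA also when replicate 1 of those EKO-labelled cells was left out (0.29, adjusted p = 0.058 from edgeR). Without replicate 1 of the EKO-labelled cells of both treatments both calls were kept, at 0.26 (adjusted p = 0.042) with OVA and 0.29 (adjusted p = 0.024) without.

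Itgb5 (ENSMUSG00000022817, chromosome 16 from 33829665 to 33949338, plus strand) was read at 1.92 to 3.08 CPM in all 12 libraries. Its log2 fold change was -0.02 (SE 0.17, adjusted p = 0.93 from edgeR) with OVA and 0.11 (SE 0.18, adjusted p = 0.63 from edgeR) without, and the lines overlapped. Itgb3 (ENSMUSG00000020689, chromosome 11 from 104608000 to 104670476, plus strand), the beta chain of the platelet fibrinogen receptor and of a vitronectin receptor, was at the limit of detection. It had 2, 1 and 1 counts in unpulsed CtrV cells, 0 in each OVA-pulsed CtrV library, 5, 4 and 2 in unpulsed EKO-labelled cells and 5, 6 and 9 in OVA-pulsed ones. The 0 of 98534079 counts in OVA-pulsed CtrV cells allow up to 0.0304 CPM before scaling. No fold change is given for Itgb3 at this depth.

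**Figure D2:**
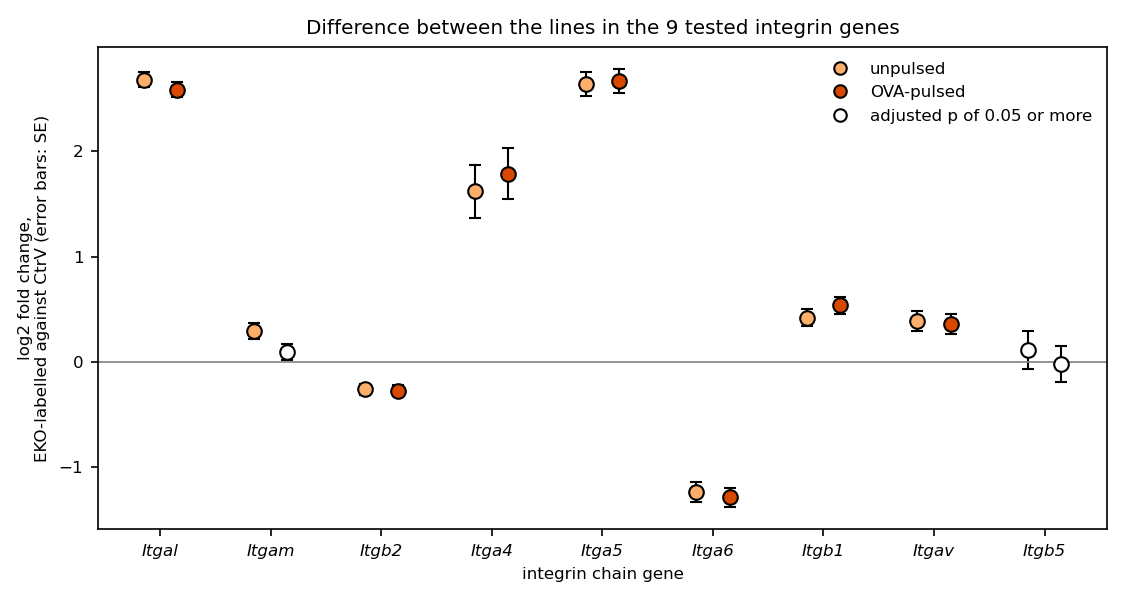
Log2 ratio of EKO-labelled to CtrV cells (y axis) for the 9 tested integrin genes (x axis), unpulsed and OVA-pulsed, with SE as error bars and open points for an adjusted p of 0.05 or more. Itgal and Itga5 lie near 2.6 in both treatments, Itga6 lies at -1.24 and -1.28, and Itgb2 lies slightly under 0.

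Pulsing with OVA was not seen to move the integrin genes. Between OVA-pulsed and unpulsed cells, log2 fold changes of the 9 genes lay between -0.03 (Itgb1) and 0.16 (Itgav) in CtrV cells and between -0.06 (Itgam) and 0.25 (Itga4) in EKO-labelled cells. No integrin gene was called in either line, and 0.00% of all tested genes were called in CtrV cells and 0.00% in EKO-labelled cells. The dependence of the line difference on pulsing lay between -0.20 (Itgam) and 0.17 (Itga4), again with no call, against 0.00% of all tested genes. In these 3 comparisons edgeR gave 0 integrin genes at an unadjusted p under 0.05, and so did DESeq2 and limma voom. Over all 14079 tested genes, the unadjusted counts from edgeR were 231, 394 and 269. Each is below the share of 0.05 awaited where no gene differs, so the absence of calls is weak evidence. Fits of the 6 compared libraries alone gave 239 genes in CtrV and 743 in EKO-labelled cells, with 1 integrin gene in each. The smallest SE of a pulsing effect was 0.05, for Itgb2, and the largest was 0.26, for Itga4 in CtrV cells.

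Per length of the exons, the chains fell into abundant and scarce ones. In OVA-pulsed CtrV cells, Itgb2 was highest with 183 ± 4.26 CPM per kb (SD, n = 3), followed by Itgam with 126 ± 9.84 and Itgb1 with 109.95 ± 6.17 CPM per kb. All 3 were separate from each other in these libraries. Next came Itgal at 10.05 ± 2.00 CPM per kb, then Itgav at 7.42 ± 1.10 and Itga5 at 7.23 ± 1.36 CPM per kb, which overlapped. Itga6 followed at 4.71 ± 0.320 CPM per kb, and Itga4 and Itgb5 overlapped at 0.890 ± 0.286 and 0.708 ± 0.150 CPM per kb. In unpulsed CtrV cells Itgam and Itgb1 overlapped too, and Itgb3 was last in every group.

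In OVA-pulsed EKO-labelled cells the 3 abundant chains were no longer separate. Itgb1 had 160.3 ± 16.4, Itgb2 151 ± 4.20 and Itgam 137 ± 32.4 CPM per kb (SD, n = 3), and each overlapped its neighbour. Itgal reached 60.1 ± 8.76 and Itga5 45.7 ± 3.99 CPM per kb, both above Itgav at 9.62 ± 2.35 CPM per kb. Itga4 at 3.06 ± 1.09 and Itga6 at 1.94 ± 0.207 CPM per kb overlapped. The order in unpulsed EKO-labelled cells was the same, with the same overlaps.

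As a result of these shifts, the ratio of Itgal to Itgam per length was 0.0718 to 0.0901 in OVA-pulsed CtrV libraries and 0.401 to 0.470 in EKO-labelled ones. Itgam remained the more abundant alpha chain of the pair in every library. Itgb1 relative to Itgb2 was 0.555 to 0.650 in OVA-pulsed CtrV libraries and 0.980 to 1.21 in EKO-labelled ones. The ratio of Itga5 to Itga6 was 1.26 to 2.00 in OVA-pulsed CtrV libraries and 21.6 to 25.2 in EKO-labelled ones. With the longest annotated transcript in place of all exons these became 0.670 to 1.07 and 11.5 to 13.5, so which of Itga5 and Itga6 was higher in CtrV cells depended on the length used. Ratios rest on the same counts as the fold changes above and are a description of them.

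Of the summed level per length of Itga4, Itga5, Itga6 and Itgav, Itga5 made up 35.5% ± 2.29 (SD, n = 3) in OVA-pulsed CtrV and 76.0% ± 2.57 in OVA-pulsed EKO-labelled cells. The share of Itga6 was 23.6% ± 4.04 and 3.23% ± 0.325. Itgav had 36.6% ± 0.920 and 15.8% ± 1.84, although its own level was not lower. Itga4 stayed a minor chain at 4.33% ± 0.855 and 5.01% ± 1.35. Unpulsed cells gave Itga5 36.2% ± 2.13 and 75.9% ± 5.79. Alpha chains outside the set are not in this sum, so it does not cover all partners of Itgb1. Among those left out, Itga3 had 1.62 CPM per kb in OVA-pulsed CtrV and 7.75 in OVA-pulsed EKO-labelled cells. Itga1 went the other way, from 1.47 to 0.655 CPM per kb. By the longest transcript, Itga6 had 32.7% and Itga5 26.3% in OVA-pulsed CtrV cells, and 5.50% and 69.1% in EKO-labelled ones, so their order in CtrV cells was reversed while the shift between the lines kept its direction.

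**Figure D3:**
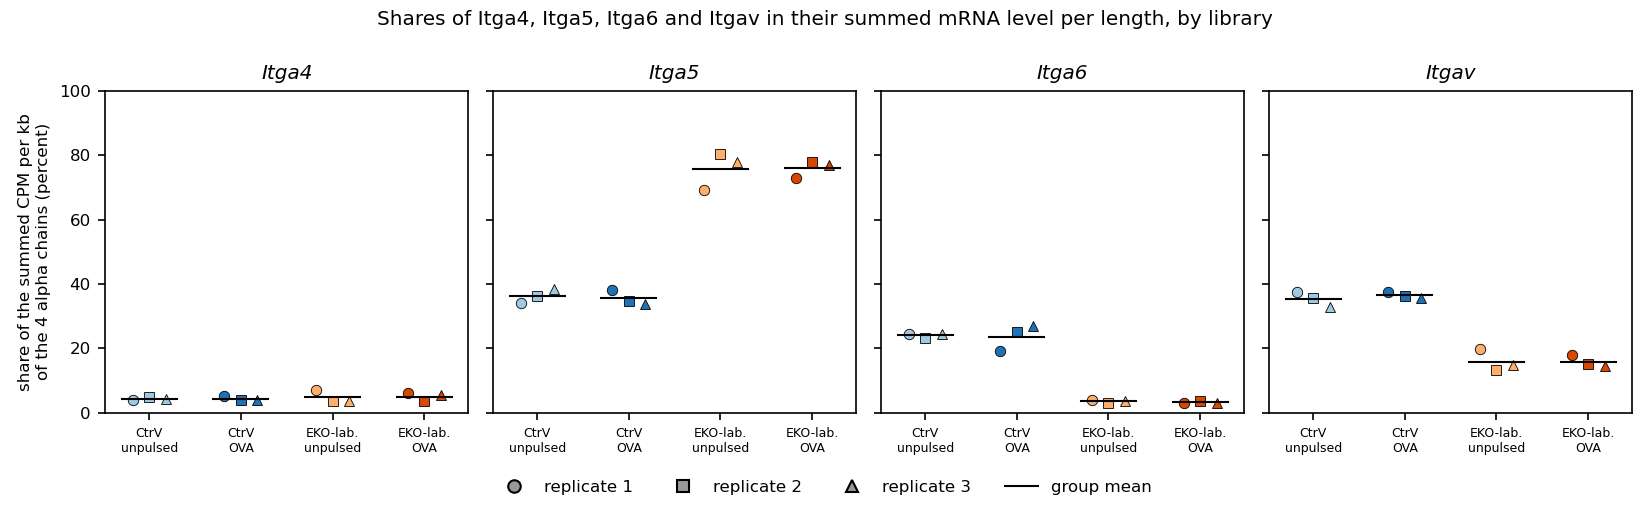
Share in percent of each of 4 alpha chain genes in their summed CPM per kb (y axis), by group (x axis), with 1 point per library shaped by replicate and a bar at the group mean. The share of Itga5 is 33.7 to 38.3% in CtrV libraries and 69.4 to 80.4% in EKO-labelled ones, while those of Itga6 and Itgav are lower in the latter.

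Of these 4 related chains, Itgb8 was higher, Itgae and Itgax were lower and Itgb7 was not called. Itgae fell from 90.1 ± 15.6 to 1.40 ± 0.183 CPM with OVA (log2 fold change -5.99, adjusted p = 1.3e-10 from edgeR) while Itgb7, its partner and also that of Itga4, had 29.0 ± 4.84 and 31.8 ± 5.04 CPM (0.13, adjusted p = 0.38 from edgeR). Itgb8, another partner of Itgav, rose from 1.20 ± 0.812 to 20.9 ± 11.7 CPM (log2 fold change 4.11, adjusted p = 6.3e-07 from edgeR), and Itgax, the alpha chain CD11c, fell by 0.27 on the log2 scale (adjusted p = 0.0040 from edgeR).

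For each tested member, the gene with the most similar profile was sought among all tested genes, by the root mean square difference of centred log2 CPM over the 12 libraries. For Itgal this was Itga5, at 0.154, and for Itga5 it was Tsku, at 0.141. The nearest gene was Fam53b for Itga4 (0.125), Slc33a1 for Itgb1 (0.0465), Hr for Itga6 (0.0820), Brf1 for Itgb2 (0.0335), Pik3r1 for Itgav (0.0729) and Zfp874a for Itgb5 (0.10). That of Itgam was Gm49368, at 0.0119, with which it shares exons. Where the difference between the lines is large, likeness describes mainly its size. For Itgam, Itgav and Itgb5 the lines overlapped, and their profiles also hold the spread between replicates.

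The other genes of the integrin system were read from lists put together by function. Of 13 other integrin chains 7 passed the filter, and 3 were higher and 3 lower in OVA-pulsed EKO-labelled cells. Those higher were Itga9 (log2 fold change 3.88, SE 0.37), Itga3 (2.27, SE 0.19), a laminin receptor chain, and Itga2 (1.18, SE 0.18), a collagen receptor chain. The collagen receptor chain Itga1 (-1.16, SE 0.08), the platelet chain Itga2b (-0.75, SE 0.18) and the leukocyte chain Itgad (-0.55, SE 0.05) were lower. Itga9 had a mean under 1 CPM in both CtrV groups and passed the filter through the EKO-labelled libraries. The median log2 fold change over the 7 genes was -0.48, and -0.51 without Itga9, against 0.00 over all tested genes. Without Itga9, 2 were higher and 3 lower. As given above, 25.1% of all tested genes were called higher and 21.9% lower with OVA, and 24.5% and 21.9% without, and the counts of these lists stand beside those shares.

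Of 42 genes of integrin ligands 14 passed the filter, 8 higher and 4 lower with OVA, with a median log2 fold change of 0.86. Without C3 and Icam5, 6 were higher and 4 lower, and the median was 0.39. The largest rises were those of C3 (3.33, SE 0.29), whose fragment iC3b binds Mac-1, Icam5 (2.72, SE 0.49), a ligand of LFA-1, and F11r (1.55, SE 0.11), a junctional ligand of LFA-1. C3 and Icam5 had means under 1 CPM in both CtrV groups and passed the filter through the EKO-labelled libraries. Icam5 was scarce in EKO-labelled cells too, with means of 0.699 CPM when unpulsed and 0.918 CPM after OVA. Spp1, which encodes osteopontin, a ligand of several members, fell by 3.00 on the log2 scale (SE 0.14), Vwf by 0.67 (SE 0.11) and Mfge8, a bridge between Itgav integrins and dying cells, by 0.32 (SE 0.12). Icam1 was named after its values were seen, as the main ligand of LFA-1. It was at 240.4 ± 44.5 CPM in OVA-pulsed CtrV libraries and at 438 ± 64.7 CPM in OVA-pulsed EKO-labelled ones (0.87, adjusted p = 2.5e-05 from edgeR). Fn1, Vcam1 and Vtn, chosen in the same way as ligands of Itga5, Itga4 and Itgav, did not pass the filter, and Vtn had 0 counts in OVA-pulsed cells of both lines.

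Genes of integrin activators and adaptors were the largest list, with 57 of 73 tested. Of them 21 were higher, 19 lower and 17 not called, and the median log2 fold change was 0.03. Higher were Rasip1 (2.16, SE 0.44) and Vcl (1.69, SE 0.16), which encodes vinculin of adhesion sites. Parvb, for a parvin of the integrin-linked kinase complex, fell by 2.01 on the log2 scale (SE 0.12), the Src-family kinase gene Fgr by 1.46 (SE 0.06) and Zyx, for zyxin of adhesion sites, by 1.03 (SE 0.06). Tln1 and Fermt3, named after their values were seen because talin and kindlin-3 switch leukocyte integrins on, had log2 fold changes of 0.07 (SE 0.09) and -0.10 (SE 0.05) and were not called. Rasip1 was under 1 CPM in every CtrV library, and Parvb was so in every EKO-labelled library. Without these genes 20 were higher and 18 lower with OVA.

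Of 20 membrane proteins that associate with integrins 16 were tested, with 11 higher and 3 lower. The median log2 fold change was 0.29, and 0.18 without Cd36. Without Cd36 and Cd63, each above 1 CPM in fewer than 2 libraries of a line, 10 were higher and 3 lower. The largest rises were Cd36 (2.38, SE 0.41), a scavenger receptor that was under 1 CPM in every CtrV library and passed the filter through the EKO-labelled ones, the syndecan gene Sdc4 (2.07, SE 0.15) and Plaur (1.93, SE 0.18), the urokinase receptor. The falls were small: 0.27 for the tetraspanin gene Cd151, 0.19 for Cd44 and 0.18 for Adam15 on the log2 scale. Without OVA the counts higher and lower were 3 and 3 of the other chains, 7 and 5 of the ligands, 20 and 19 of the activators and adaptors, and 9 and 4 of the membrane proteins. With the same genes left out as above, they were 2 and 3, 5 and 5, 19 and 18, and 8 and 3. No gene of the 4 lists was called by edgeR for pulsing or for its dependence on the line.

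**Figure D4:**
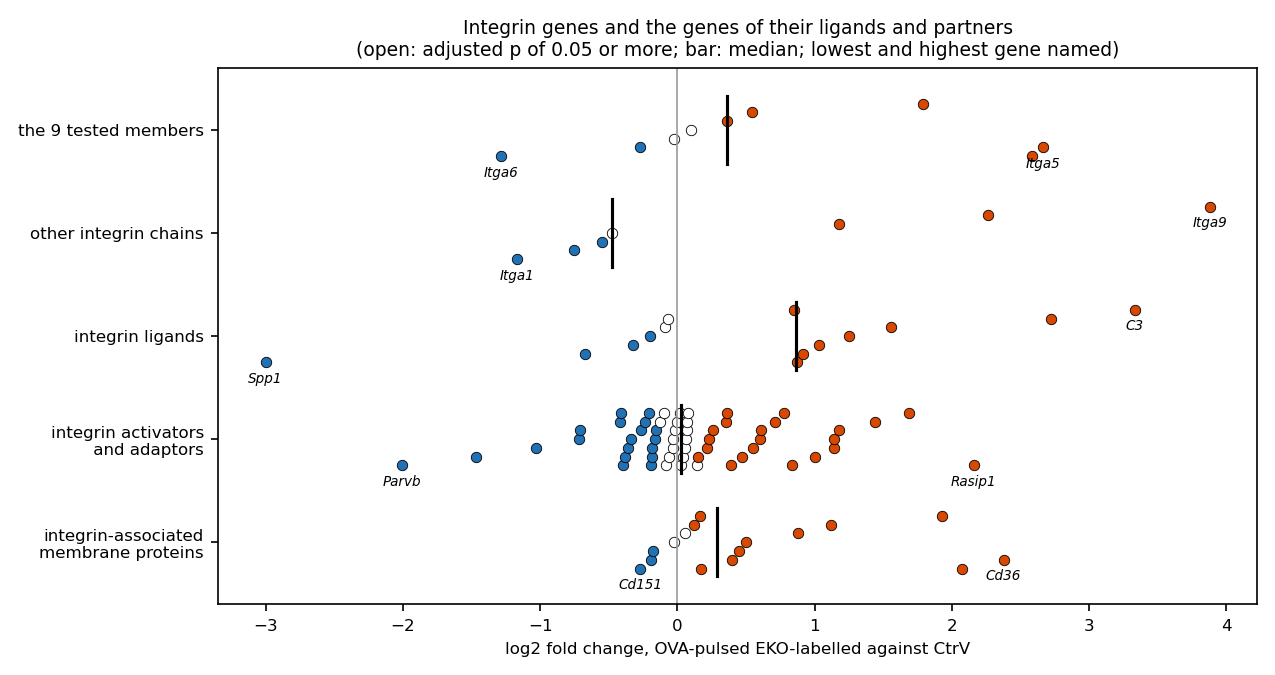
Log2 ratio of EKO-labelled to CtrV cells after OVA (x axis) of the 9 tested integrin genes and of 4 lists of related genes (y axis), 1 point per gene, filled where called, with a bar at the median and the lowest and highest gene named. Calls in both directions occur in every row, and the median lies between -0.48 for the other chains and 0.86 for the ligands, the latter 0.39 without C3 and Icam5.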

How the data were processed

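Bulk RNA sequencing of 12 cultures of Sp37A3 cells was analysed. The authors deposited raw counts per gene in 1 table. Per the labels and methods, reads from a stranded mRNA kit were aligned to mm10 with STAR, sorted with SAMtools, and their 5′ ends counted on exon unions with featureCounts. A read that fitted several places equally well was given 1 location. No normalization is in the deposited counts.

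Genes were kept if log2 CPM exceeded 0 in 2 or more libraries, 14079 of 55401. Counts were TMM-normalized and fitted over all 12 libraries with edgeR 4.0.16 (R 4.3.3, quasi-likelihood test, group and replicate number as terms, Benjamini-Hochberg adjustment, limit 0.05), the design of the study's methods, whose own limits are blank in the text. Deviations of same-numbered OVA-pulsed libraries of the lines were correlated at 0.448, 0.292 and 0.289. Levels per kb divide CPM by the exon union in GENCODE M21 (GRCm38), which is not the Ensembl model of the authors. No column was left unused, and no library was a repeat of another in its group (chi-square per degree of freedom of 4.29 or more). Libraries of different groups were not compared in this way. The fit was tested on simulated counts.

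The members and gene lists were chosen with earlier results of these data known. All 10 members are named, the 3 largest calls in each direction per list with OVA, and the nearest profile of each member; 1 gene that this rule names is not reported here. Alternatives were RLE and upper-quartile normalization, DESeq2 1.42.0, limma voom 3.58.1, other filters, limits and deviances, no replicate term, the compared libraries alone, and leaving out libraries.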

Additional observations from a re-analysis of the deposited data

How the results depend on the processing

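The number of integrin genes called was 7 with OVA and 8 without. Asking also for an absolute change of 1 or more (log2) left 4 in each, namely Itgal, Itga5, Itga4 and Itga6, while 9.01% and 8.81% of all tested genes were called. Leaving out single libraries gave 6 to 7 with OVA and 8 without, and 0 in the other comparisons. Without the replicate block 6 were called in each, as Itgav and, without OVA, Itgam were lost, and the share of all tested genes fell to 38.4% and 37.9%. Their values under the block are in the report. Same-numbered unpulsed libraries of the lines had correlations of 0.0602, -0.0118 and 0.263, so there the numbers do not show a pairing. An adjusted p under 0.01 left 6 with OVA, and 33.6% of all tested genes. Without a filter Itgb3 was tested too and called with OVA (adjusted p = 0.0025 from edgeR), on 0 against 20 counts, but not without OVA (adjusted p = 0.44). Itgal, Itga5, Itga4, Itga6, Itgb1 and Itgb2 were called with the same direction in both treatments under every other alternative run. The sign of uncalled members was not stable. With single libraries left out, Itgb5 ranged from -0.040 (without replicate 1 of the CtrV cells) to 0.32 in unpulsed cells and from -0.17 to 0.14 with OVA, above 0 there without replicate 1 of the CtrV cells (0.051) and without replicate 2 of the EKO-labelled cells (0.14). Itgam with OVA was -0.0051 without replicate 1 of the EKO-labelled cells of both treatments. The list medians and counts without genes that passed the filter through 1 line, or were scarce in both, were added after the data were seen. The scalings moved the median of all genes by at most 0.05. Depth limits only Itgb3 and, with about 2 CPM, Itgb5.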
